A study of Vitis vinifera with 60 samples.

Results

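Soft berries were compared with berries that were beginning to touch in the bunch, a step that spans the onset of ripening. The comparison took the columns whose names end in Soft and those whose names end in Touch, paired by cultivar. These are 10 of the 20 columns of the table and stand for 30 of the 60 libraries. The tested rows were those reaching 1 FPKM in at least 1 of the 20 columns, 20833 of 29287. FPKM are fragment numbers divided by transcript length and library size.

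Both groups hold untreated berry pericarp, taken as whole berries without seeds, from 5 white-skinned cultivars of grapevine (Vitis vinifera). The cultivars are Passerina, Garganega, Vermentino, Glera and Moscato bianco. Stages are labelled Soft berries and Berries beginning to touch, written Soft and Touch here. All vines stood in 1 experimental vineyard in the 2011 season. Each value is the authors' mean for 1 cultivar at 1 stage, for which the labels list 3 libraries. Whether these came from separate vines is not given in the labels. Each SD below runs over the 5 cultivars. Each SE comes from the paired fit over the 5 cultivars, with its variance drawn towards that of rows of similar level. The spread between libraries is unknown. Pea-sized (Pea) and harvest-ripe (Harv) berries are cited only as levels.

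A grape berry grows in a green phase and a ripening phase. In the green phase cells divide and enlarge and store organic acids and tannins. At the onset of ripening the berry softens, its cell walls are loosened by expansins and related enzymes, hexoses accumulate in vacuoles, malate falls, and in coloured cultivars anthocyanins form in the skin. Abscisic acid and brassinosteroids are known to promote this onset in grape, and auxin to delay it.

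The table gives identifiers without gene names, and 0 of 29971 identifiers matched a table of 29591 annotated genes of another assembly. Names below are those in common use in the grapevine literature for these identifiers. They are background knowledge and were not checked against an annotation. The lists hold 72 genes, of which 69 were tested. A row was called when its Benjamini-Hochberg adjusted p over all 20833 rows (limma, paired by cultivar) was under 0.05 and its change in log2(FPKM + 1) was at least 2-fold. This scale understates the fold of rows with low FPKM. Every change is Soft minus Touch.

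Most changed rows were lower in soft berries on the deposited scale, and the balance evened out when columns were set to equal medians. As deposited, 723 rows rose (3.47% of 20833) and 3125 fell (15.0%), so that 81.2% of calls were falls. After scaling to equal medians 1370 rows rose (6.58%) and 1738 fell (8.34%), with 55.9% of calls falling. The median change over all rows was -0.31 as deposited and 0.07 after scaling, a shift to which changes on either scale are relative. All 723 rises and 1738 of the 3125 falls held on both scales, and 0 rows were called in opposite directions. Scaling raised every Soft column and lowered every Touch column, and so moved changes towards a rise in each cultivar. That rises were kept and no call reversed follows largely from this shift and is not separate support. The other 1387 falls were called only as deposited, and 647 rises only after scaling. In bulk tissue, fewer cells of a type and less RNA per cell cannot be told apart.

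**Figure D1:**
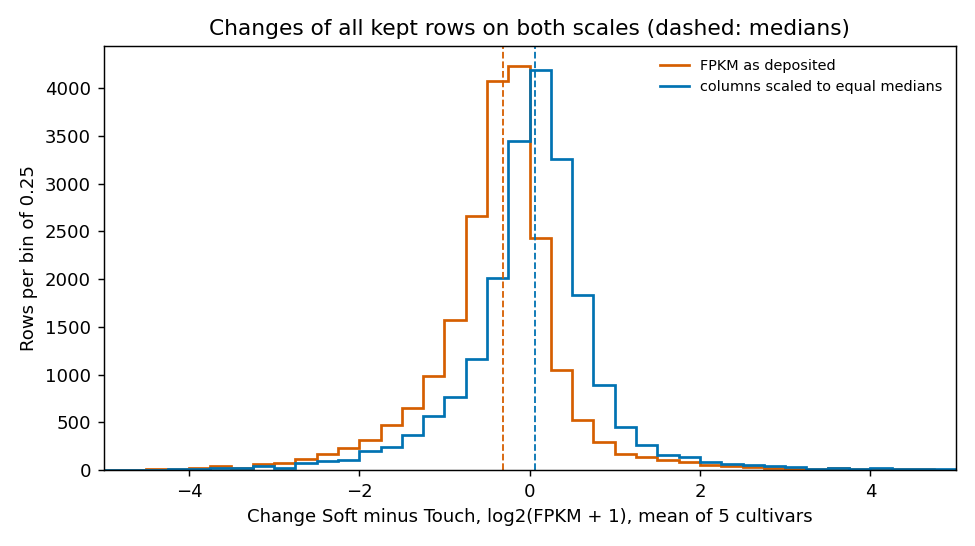
The number of tested rows (vertical axis, rows per bin of 0.25) is plotted against the change in log2(FPKM + 1), Soft minus Touch, averaged over 5 cultivars, between -5 and 5 on the horizontal axis. The curve of deposited values has its median (dashed) at -0.31, and the curve of median-scaled values lies to its right with a median of 0.07.

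The 723 rising rows, 3.47% of those tested, held a large part of the summed FPKM at Soft. The rising rows held 24.9% ± 5.0 of the summed FPKM at Soft and 4.02% ± 0.69 at Touch (SD, n = 5 cultivars). The falling rows held 6.10% ± 0.82 at Soft and 22.4% ± 1.7 at Touch. Both sets were picked by their change in these same columns, so the direction of each difference was fixed beforehand and only its size is described. The column medians were 7.40 ± 0.24 FPKM at Soft and 10.8 ± 0.33 FPKM at Touch, and the factors that equalised them were 1.18 to 1.27 at Soft and 0.815 to 0.886 at Touch. Among 77 rows with a mean of at least 1000 FPKM, 28 rose (36.4%, against 3.47% of all rows) and 18 fell (23.4%, against 15.0%) as deposited. After scaling 33 of them rose (42.9%, against 6.58%) and 9 fell (11.7%, against 8.34%). Among 7110 rows with a mean of 1 to 10 FPKM, 230 rose (3.23%) and 1443 fell (20.3%) as deposited. After scaling 369 of these rose (5.19%) and 871 fell (12.3%).

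As deposited, 23 of the 69 tested listed genes rose (33.3%, against 3.47% of all rows) and 17 fell (24.6%, against 15.0% of all rows). After scaling 30 rose (43.5%, against 6.58%) and 9 fell (13.0%, against 8.34%). The counts by list below stand against the same shares of all rows. The lists were built around processes of ripening, with earlier results of these data known, and the median change of their 69 tested genes was 0.18 as deposited against -0.31 over all rows. As deposited, values of the 5 cultivars at Soft and at Touch did not overlap, in either direction, for 32 of the 69 genes. Over all rows the same held for 6639 of 20833, with 4.18% higher and 27.7% lower at Soft. Overlap was not counted after scaling.

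The listed genes of cell wall loosening rose together, most of them by large amounts. They were chosen with earlier results of these data known and do not stand for their whole families. All 6 listed genes rose on both scales, with a median change of 4.96 as deposited and 5.48 after scaling. Expansins loosen the contacts between cellulose and xyloglucan, and xyloglucan endotransglucosylase/hydrolases (XTH) cut and rejoin xyloglucan chains. XTH32 (VIT_06s0061g00550) stood at 2029 FPKM in Garganega, 2861 in Glera, 3466 in Moscato bianco, 4057 in Passerina and 3051 in Vermentino at Soft, against 1.60, 7.78, 51.9, 1.36 and 5.49 FPKM in the same cultivars at Touch. Its lowest value at Soft was far above its highest at Touch, which was that of Moscato bianco. The gene rose by 8.72 in log2 units (SE 0.64, adjusted p = 0.00033). It stood at 2375 to 5249 FPKM at Harv.

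Among the expansins, EXPB4 (VIT_15s0021g02700) stood at 355 FPKM in Garganega, 1294 in Glera, 1215 in Moscato bianco, 1057 in Passerina and 1187 in Vermentino at Soft, against 0.634, 7.71, 2.05, 2.01 and 1.28 FPKM in the same cultivars at Touch. Garganega was lowest at both stages, and the groups did not overlap (log2 change 8.22, SE 0.27, adjusted p = 7.78e-05). At Harv it stood at 2144 to 4823 FPKM, above Soft in all 5 cultivars. EXPA14 (VIT_13s0067g02930) stood at 1149 FPKM in Garganega, 1858 in Glera, 1818 in Moscato bianco, 1037 in Passerina and 2815 in Vermentino at Soft, against 7.70, 80.7, 173, 23.6 and 82.3 FPKM in the same cultivars at Touch. Moscato bianco was highest and Garganega lowest at Touch, and the change was 5.08 (SE 0.49, adjusted p = 0.00068). EXPA1 (VIT_01s0026g02620) rose in each cultivar, by 4.31 to 5.20 on the log2 scale, with values from 140.4 to 455 FPKM at Soft and from 2.85 to 17.6 FPKM at Touch. EXPA18 (VIT_17s0053g00990) ranged from 316 to 598 FPKM at Soft and from 7.82 to 60.3 FPKM at Touch, a change of 4.13. EXPA19 was measured in a row that joins VIT_18s0001g01130 with VIT_18s0001g01140. This row was already abundant at Touch, with 2059 ± 216 FPKM at Soft and 939 ± 389 FPKM at Touch, and rose by 1.24 (SE 0.27, adjusted p = 0.0104). Its change was 0.95 without Garganega and 0.88 after quantile normalization, both under the 2-fold limit.

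**Figure D2:**
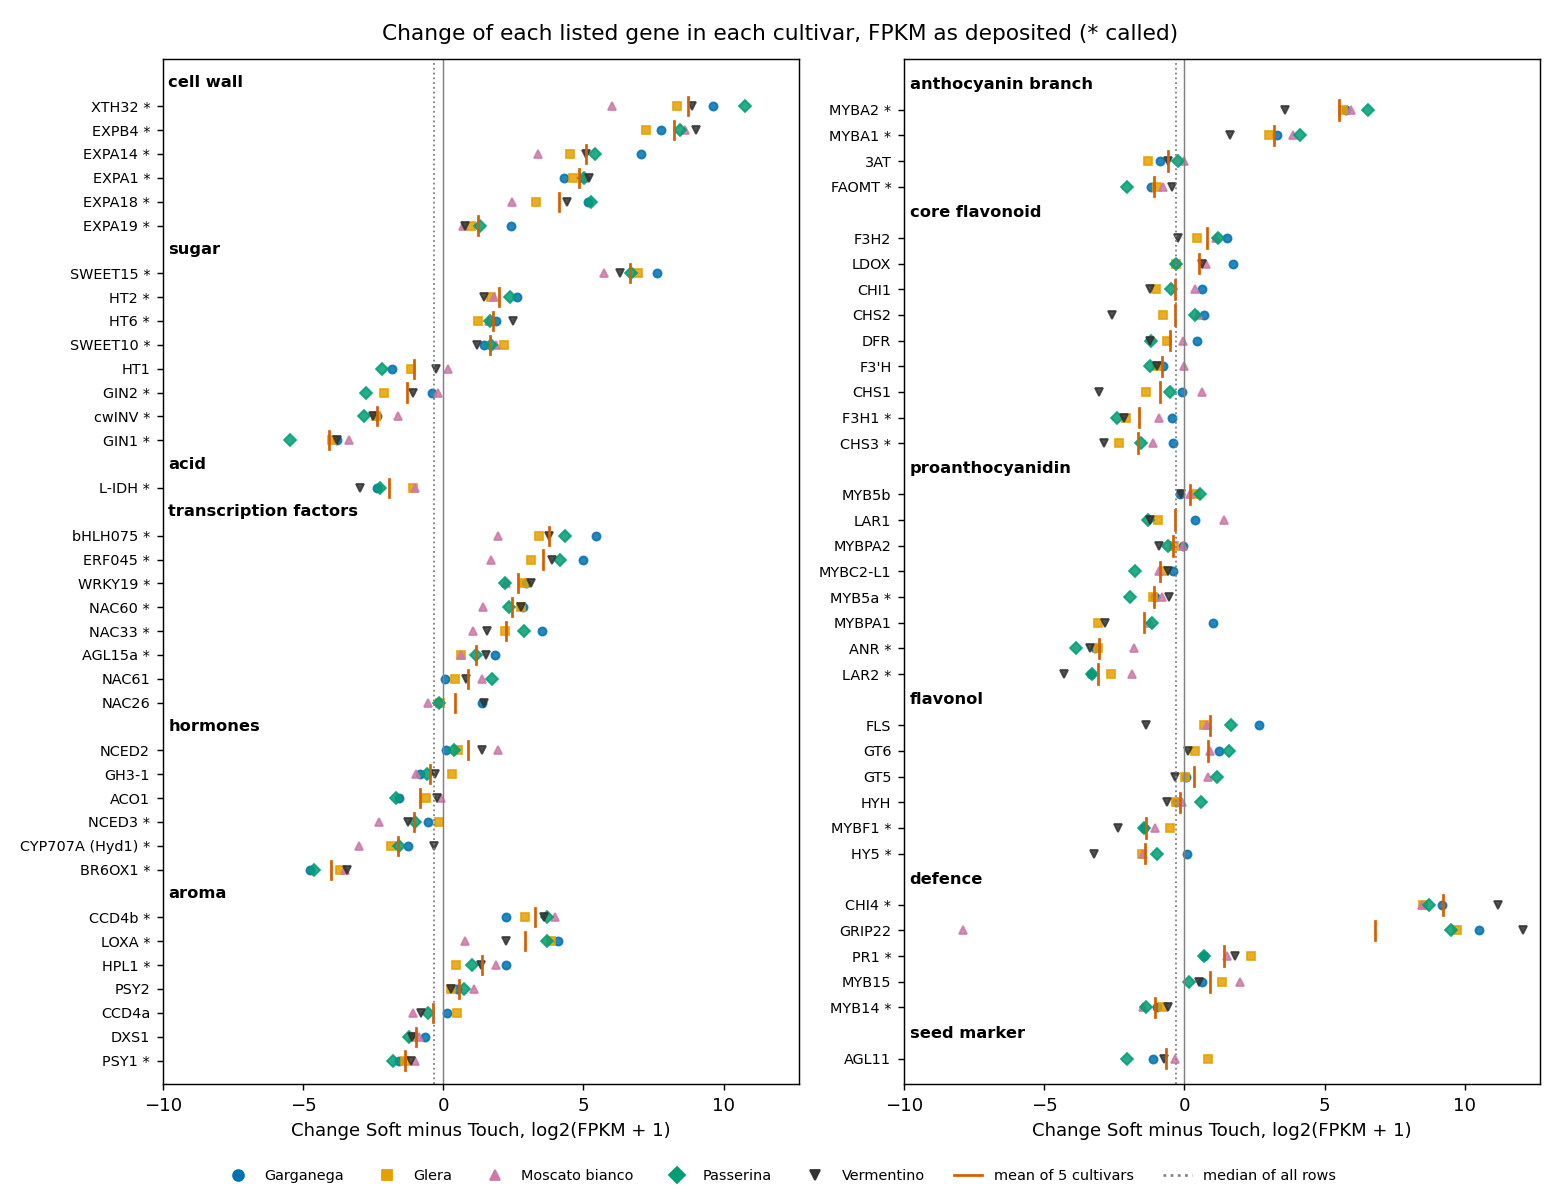
Each row is a listed gene, grouped by list, and the horizontal axis gives its change in log2(FPKM + 1), Soft minus Touch, as deposited. Symbols stand for the 5 cultivars, orange bars for their mean, asterisks for called genes and the dotted line for the median of all rows at -0.31. The 6 cell wall genes lie to the right in every cultivar, while Vermentino lies leftmost in all 6 flavonol genes.

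Of the sugar transport genes SWEET15, SWEET10, HT6 and HT2 rose, and the invertase genes fell. Of 8 tested genes of the sugar list 4 rose and 3 fell as deposited, and 4 rose and 2 fell after scaling. SWEET15 (VIT_01s0146g00260), of a family of membrane sugar facilitators, had the largest change of the sugar list. It stood at 510.0 FPKM in Garganega, 1496 in Glera, 631 in Moscato bianco, 626 in Passerina and 696 in Vermentino at Soft, against 1.62, 11.1, 10.9, 5.04 and 7.88 FPKM in the same cultivars at Touch. Every Soft value exceeded every Touch value (log2 change 6.66, SE 0.26, adjusted p = 9.65e-05), and at Harv it stood at 1162 to 2424 FPKM. SWEET10 (VIT_17s0000g00830) stood at 166 FPKM in Garganega, 398 in Glera, 319 in Moscato bianco, 365 in Passerina and 245 in Vermentino at Soft, against 59.2, 86.9, 85.3, 112 and 107 FPKM in the same cultivars at Touch. Groups were again apart, with a smaller change of 1.68 (SE 0.15, adjusted p = 0.000534). SWEET4 (VIT_14s0066g01420) stayed under 1 FPKM in all 20 columns and was not tested.

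Of the hexose transporters HT6 and HT2 rose and HT1 was not called. HT6 (VIT_18s0122g00850), which carries hexoses into the vacuole, stood at 449 FPKM in Garganega, 436 in Glera, 574 in Moscato bianco, 299 in Passerina and 537 in Vermentino at Soft, against 121, 182, 185, 92.2 and 94.1 FPKM in the same cultivars at Touch. The groups did not overlap (log2 change 1.79, SE 0.18, adjusted p = 0.000707). HT2 (VIT_18s0001g05570) ranged from 82.8 to 168 FPKM at Soft and from 16.4 to 47.3 FPKM at Touch and rose by 1.99 (SE 0.19, adjusted p = 0.000638). HT1 (VIT_00s0181g00010), a plasma-membrane hexose transporter, was not called at a change of -1.05 (adjusted p = 0.0531). As deposited it was lower at Soft in 4 of 5 cultivars and slightly higher in Moscato bianco, and without Moscato bianco it changed by -1.35 and was called (adjusted p = 0.0289; 0.0157 to 1 over its alternatives).

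Invertases split sucrose into glucose and fructose. GIN1 (VIT_16s0022g00670), a vacuolar invertase, stood at 75.6 FPKM in Garganega, 104 in Glera, 40.5 in Moscato bianco, 19.9 in Passerina and 61.6 in Vermentino at Soft, against 1053, 1629, 424, 923 and 857 FPKM in the same cultivars at Touch. Passerina reached the lowest value at Soft, and the groups did not overlap (log2 change -4.07, SE 0.30, adjusted p = 0.000339). GIN1 went on to 0.220 to 4.87 FPKM at Harv. The cell-wall invertase cwINV (VIT_09s0002g02320) fell by 2.35 (SE 0.18, adjusted p = 0.000369), with values from 1.56 to 3.60 FPKM at Soft and from 8.72 to 24.7 FPKM at Touch. The second vacuolar invertase, GIN2 (VIT_02s0154g00090), fell by 1.30 (SE 0.41, adjusted p = 0.0354), with values from 11.9 to 41.6 FPKM at Soft and from 32.3 to 85.7 FPKM at Touch, so that its groups overlapped. The GIN2 call was lost after scaling (change -0.78, adjusted p = 0.156). It was also lost without Glera (adjusted p = 0.108), without Passerina (0.0779) and without Vermentino (0.0758), with adjusted p of 0.00204 to 1 over its alternatives.

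L-idonate dehydrogenase (L-IDH, VIT_16s0100g00290), an enzyme of tartaric acid synthesis, was lower in soft berries on both scales. It stood at 22.5 FPKM in Garganega, 14.5 in Glera, 39.1 in Moscato bianco, 56.4 in Passerina and 31.4 in Vermentino at Soft, against 119, 31.6, 80.3, 274 and 251 FPKM in the same cultivars at Touch. The groups overlapped, since the Passerina and Moscato bianco values at Soft exceeded the Glera value at Touch, but the gene fell in each of the 5 cultivars (log2 change -1.93, SE 0.32, adjusted p = 0.00368). Its change after scaling was -1.41 (adjusted p = 0.0118). At Pea L-IDH stood at 186 to 822 FPKM.

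Transcription factors of ripening mostly rose. Of 8 tested factors 6 rose and 0 fell as deposited, and 7 rose and 0 fell after scaling, with a median change of 2.35 as deposited. NAC33 and NAC60 are NAC-family regulators studied in grapevine for the passage of organs to maturity. NAC60 (VIT_08s0007g07670) stood at 17.6 FPKM in Garganega, 23.3 in Glera, 21.6 in Moscato bianco, 17.3 in Passerina and 21.5 in Vermentino at Soft, against 1.56, 2.53, 7.37, 2.62 and 2.28 FPKM in the same cultivars at Touch. Soft values were close to each other and apart from Touch, where Moscato bianco was highest (log2 change 2.44, SE 0.23, adjusted p = 0.000638). NAC33 (VIT_19s0027g00230) stood at 33.8 FPKM in Garganega, 20.1 in Glera, 19.4 in Moscato bianco, 42.1 in Passerina and 20.7 in Vermentino at Soft, against 2.00, 3.52, 8.77, 4.81 and 6.32 FPKM in the same cultivars at Touch. It rose by 2.26 (SE 0.37, adjusted p = 0.00371), with Moscato bianco again highest at Touch.

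Moscato bianco was also highest at Touch for bHLH075 and ERF045. bHLH075 (VIT_17s0000g00430), a basic helix-loop-helix factor, stood at 977 FPKM in Garganega, 1105 in Glera, 980.4 in Moscato bianco, 1122 in Passerina and 1123 in Vermentino at Soft, against 21.5, 102, 252, 53.8 and 81.6 FPKM in the same cultivars at Touch. Its Soft values lay within 977 to 1123 FPKM while its Touch values ran from 21.5 to 252 FPKM, with Moscato bianco highest and Garganega lowest (log2 change 3.79, SE 0.47, adjusted p = 0.00145). ERF045 (VIT_04s0008g06000), an ethylene response factor, stood at 374 FPKM in Garganega, 271 in Glera, 436 in Moscato bianco, 316 in Passerina and 377 in Vermentino at Soft, against 10.96, 30.2, 133, 16.7 and 24.4 FPKM in the same cultivars at Touch. The change was 3.57 (SE 0.45, adjusted p = 0.00156), smallest in Moscato bianco at 1.70 and greatest in Garganega at 4.97. WRKY19 (VIT_07s0005g01710) ranged from 97.3 to 165 FPKM at Soft and from 10.3 to 34.5 FPKM at Touch and rose by 2.67 (SE 0.17, adjusted p = 0.000231). The MADS-box factor AGL15a (VIT_13s0158g00100) rose by 1.16 (SE 0.21, adjusted p = 0.00505). Without Garganega its change was 0.99, under the limit. NAC61 (VIT_08s0007g07640) was higher at Soft in all 5 cultivars with a change of 0.89 as deposited, not called, and of 1.34 after scaling, called (adjusted p = 0.00908). As deposited it was also called without Garganega (1.10) and without Glera (1.01). NAC26 (VIT_01s0026g02710) was not called on either scale (change 0.41, adjusted p = 0.346).

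Moscato bianco had the highest Touch value for 15 of the 23 listed genes that rose. Over all 723 rising rows it had the highest Touch value in 352, or 48.7%, against 19.4% of all tested rows. At Soft its share of highest values among the rising rows was 30.4%, against 18.6% of all tested rows. Its lead in these rows was thus smaller at Soft but still present. These counts are descriptions without a test.

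**Figure D3:**
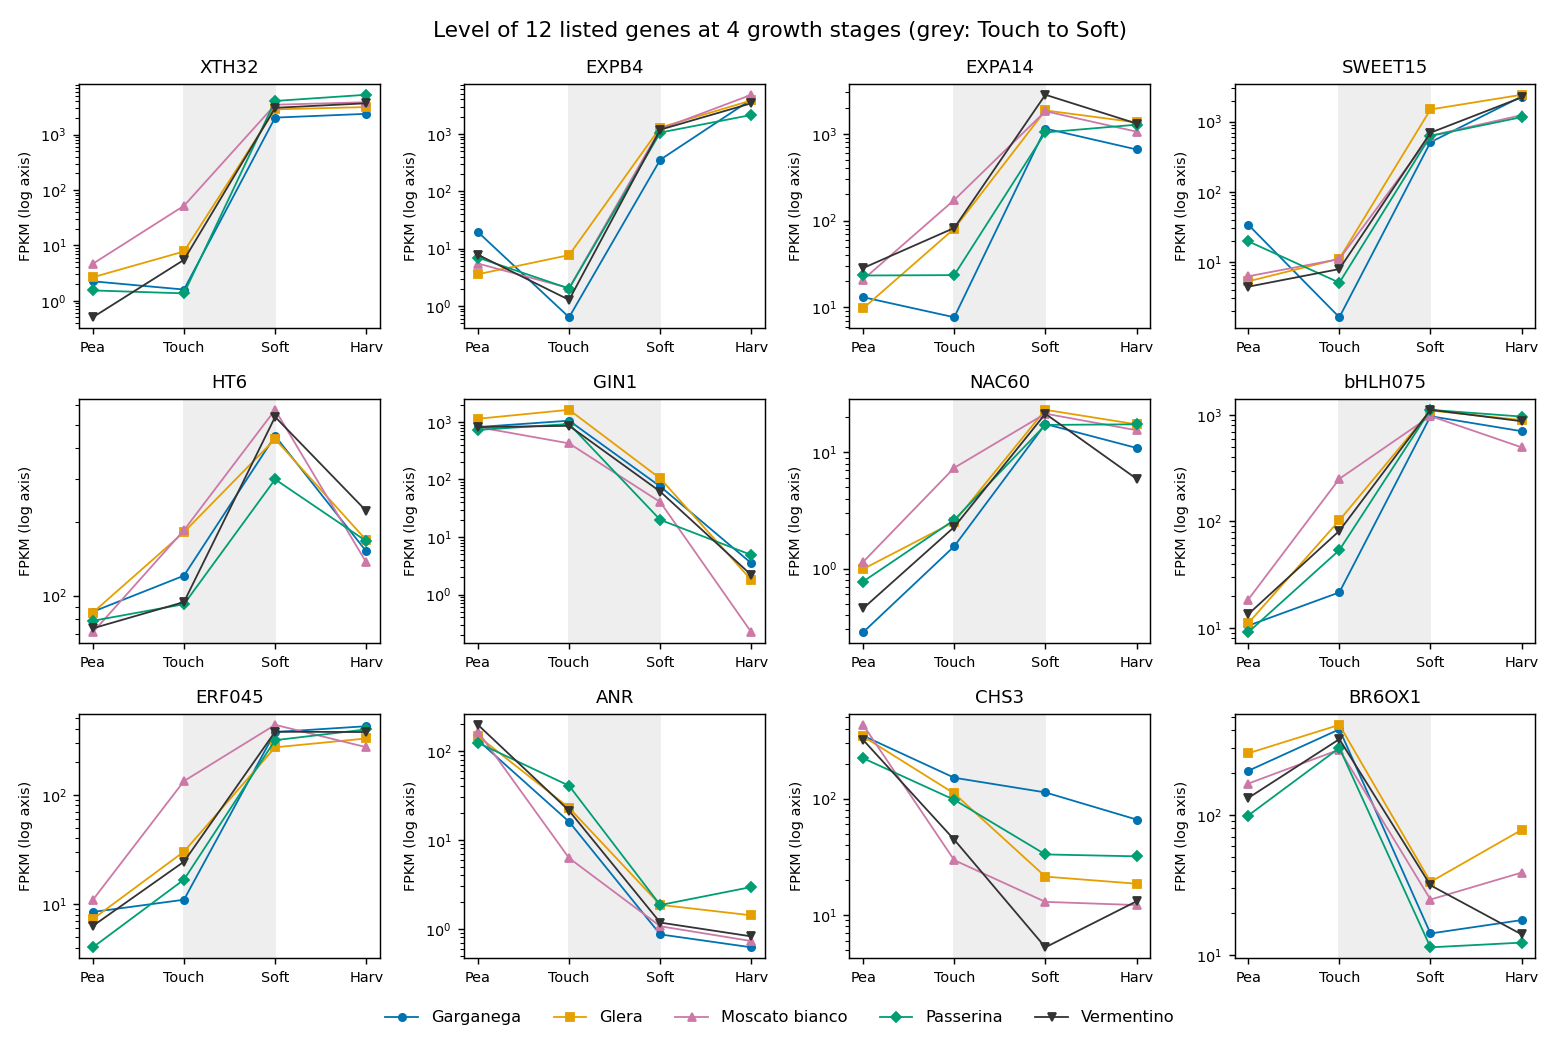
FPKM on a log axis are plotted over the stages Pea, Touch, Soft and Harv for 12 listed genes, with a line and symbol for each of the 5 cultivars and the step from Touch to Soft shaded. XTH32, ERF045 and bHLH075 converge at Soft from uneven Touch values with Moscato bianco on top, while GIN1, ANR and BR6OX1 drop in every cultivar.

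Hormone genes fell or were not called as deposited. Of 6 tested genes 0 rose and 3 fell, and after scaling 1 rose and 2 fell. BR6OX1 (VIT_14s0083g01110), the oxidase that completes castasterone, a brassinosteroid, stood at 14.2 FPKM in Garganega, 33.3 in Glera, 24.9 in Moscato bianco, 11.3 in Passerina and 31.4 in Vermentino at Soft, against 408, 439, 292, 300.4 and 347 FPKM in the same cultivars at Touch. Touch values were high in all cultivars and the groups stood apart (log2 change -3.99, SE 0.24, adjusted p = 0.000213). At Pea the gene stood at 98.9 to 275 FPKM, below its Touch value in every cultivar.

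Of the genes of abscisic acid turnover, NCED3 and CYP707A fell as deposited and NCED2 was not called. NCED enzymes cleave carotenoids on the way to abscisic acid. NCED2 (VIT_10s0003g03750) was higher at Soft in all 5 cultivars, with values from 7.16 to 27.9 FPKM at Soft and from 3.60 to 7.60 FPKM at Touch. Its change of 0.87 was under the 2-fold limit as deposited (adjusted p = 0.0454), and it was called after scaling with 1.35 (adjusted p = 0.0126) and, as deposited, without Garganega with 1.06. NCED3 (VIT_19s0093g00550) fell by 1.05 as deposited (SE 0.31, adjusted p = 0.0289), with values from 4.24 to 21.9 FPKM at Soft and from 12.5 to 32.5 FPKM at Touch. This call was lost in 10 of 16 alternatives. After scaling the change was -0.55 (adjusted p = 0.186), and with 1 cultivar left out the call was lost without Moscato bianco (change -0.73), at an adjusted p of 0.0738 without Passerina, and of 0.081 without Vermentino, against 0.0223 to 1 over the alternatives. The abscisic acid 8'-hydroxylase gene CYP707A, or Hyd1 (VIT_02s0087g00710), whose product inactivates the hormone, fell by 1.60 (SE 0.36, adjusted p = 0.0119). It ranged from 0.284 to 1.94 FPKM at Soft and from 1.20 to 18.4 FPKM at Touch, highest at Touch in Moscato bianco. Its change after scaling was -1.26 (adjusted p = 0.0294), still called.

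For auxin and ethylene the hormone list held only GH3-1 and ACO1, and neither was called. GH3-1 (VIT_03s0091g00310), which joins auxin to amino acids, had a change of -0.47 (SE 0.20, adjusted p = 0.0852) and of 0.04 after scaling. ACO1 (VIT_12s0059g01380), of ethylene synthesis, had a change of -0.84 (SE 0.28, adjusted p = 0.0448) as deposited, under the 2-fold limit. It was lower at Soft in all 5 cultivars as deposited and in 3 after scaling, and without Moscato bianco, where the change was -0.09, it was called with -1.02.

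Of the aroma and carotenoid genes, LOXA, HPL1 and CCD4b rose and PSY1 fell as deposited. Of 7 tested genes 3 rose and 1 fell as deposited, and 4 rose and 0 fell after scaling. LOXA (VIT_06s0004g01510), a lipoxygenase that starts the breakdown of linolenic acid to leaf aldehydes, stood at 899 FPKM in Garganega, 332 in Glera, 159 in Moscato bianco, 694 in Passerina and 88.1 in Vermentino at Soft, against 52.2, 21.98, 91.4, 52.5 and 18.1 FPKM in the same cultivars at Touch. It rose in every cultivar, yet the cultivars differed so much that the Vermentino value at Soft lay below the Moscato bianco value at Touch (log2 change 2.93, SE 0.51, adjusted p = 0.00475). HPL1 (VIT_12s0059g01060), the hydroperoxide lyase that follows it, rose by 1.39 (SE 0.26, adjusted p = 0.00631), with values from 257 to 607 FPKM at Soft and from 89.3 to 256 FPKM at Touch.

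Carotenoids are made by phytoene synthase and cut by cleavage dioxygenases. CCD4b (VIT_02s0087g00930), such a dioxygenase, stood at 4.36 FPKM in Garganega, 15.03 in Glera, 33.3 in Moscato bianco, 21.5 in Passerina and 21.00 in Vermentino at Soft, against 0.125, 1.12, 1.18, 0.726 and 0.832 FPKM in the same cultivars at Touch. The groups did not overlap (log2 change 3.29, SE 0.27, adjusted p = 0.000415), and at Harv it stood at 15.8 to 142 FPKM. CCD4a, in a row that joins VIT_02s0087g00910 with VIT_02s0087g00920, was not called on either scale (change -0.35, adjusted p = 0.268) and stood at 5.39 to 57.9 FPKM at Harv. PSY1 (VIT_04s0079g00680) fell by 1.37 as deposited (SE 0.12, adjusted p = 0.000574), with values from 9.18 to 18.2 FPKM at Soft and from 29.00 to 40.9 FPKM at Touch, and was at -0.86 after scaling, under the limit. PSY2 (VIT_12s0028g00960) had groups apart, with values from 19.96 to 41.1 FPKM at Soft and from 13.9 to 19.1 FPKM at Touch. Its change was 0.58 as deposited, under the limit, and 1.09 after scaling, where it was called (adjusted p = 0.00182). DXS1 (VIT_05s0020g02130), the first enzyme of the plastid route to terpenes, passed the adjusted p with a change of -0.98 (SE 0.10, adjusted p = 0.000687) just under the 2-fold limit. Leaving out Garganega (-1.06) or Moscato bianco (-1.01) put it past the limit, while after scaling it was -0.45.

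The called genes of tannin synthesis fell. Of 8 tested genes of the proanthocyanidin list 0 rose and 3 fell as deposited, and 2 fell after scaling. Proanthocyanidins are built from flavan-3-ols by anthocyanidin reductase (ANR) and leucoanthocyanidin reductases (LAR). ANR (VIT_00s0361g00040) stood at 0.865 FPKM in Garganega, 1.86 in Glera, 1.07 in Moscato bianco, 1.85 in Passerina and 1.18 in Vermentino at Soft, against 16.00, 22.9, 6.24, 40.6 and 21.3 FPKM in the same cultivars at Touch. No cultivar exceeded 2 FPKM at Soft, and the groups stood apart (log2 change -3.06, SE 0.29, adjusted p = 0.000638). LAR2 (VIT_17s0000g04150) stood at 14.5 FPKM in Garganega, 2.04 in Glera, 3.25 in Moscato bianco, 5.88 in Passerina and 2.55 in Vermentino at Soft, against 157, 17.8, 14.6, 67.4 and 68.8 FPKM in the same cultivars at Touch. Touch values were very uneven, but the groups just failed to overlap, and it fell by 3.09 (SE 0.34, adjusted p = 0.000949). LAR1 (VIT_01s0011g02960) was not called (change -0.34, adjusted p = 0.53) and was higher at Soft in Garganega and Moscato bianco.

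Of the regulators of this branch MYB5a fell as deposited and the others were not called. MYBPA1 (VIT_15s0046g00170), an activator of tannin genes, stood at 32.7 FPKM in Garganega, 5.11 in Glera, 1.44 in Moscato bianco, 12.1 in Passerina and 2.72 in Vermentino at Soft, against 15.6, 50.7, 4.77, 28.2 and 25.1 FPKM in the same cultivars at Touch. It was higher at Soft in Garganega and lower in the other 4 cultivars, and was not called (log2 change -1.46, SE 0.60, adjusted p = 0.0838). Without Garganega its change was -2.07 and it was called (adjusted p = 0.0128; 0.0128 to 1 over its alternatives). MYB5a (VIT_08s0007g07230) fell by 1.09 as deposited (SE 0.20, adjusted p = 0.00579). Its change was -0.58 after scaling and -0.88 without Passerina, both under the limit. MYB5b (VIT_06s0004g00570), MYBPA2 (VIT_11s0016g01310) and the repressor MYBC2-L1 (VIT_01s0011g04760) were not called on either scale, with deposited changes of 0.18, -0.40 and -0.88. After scaling MYB5b was higher at Soft in all 5 cultivars, with a change of 0.70 (adjusted p = 0.00619), under the 2-fold limit. MYBC2-L1 was lower at Soft in all 5 cultivars as deposited (adjusted p = 0.0119), also under that limit, and was at -0.35 after scaling.

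Of the core flavonoid enzymes CHS3 and F3H1 fell on both scales. Of 9 tested genes 0 rose and 2 fell as deposited (22.2%, against 15.0% of all rows), which is near the share over all rows. After scaling 2 rose (against 6.58% of all rows) and 2 fell (against 8.34%), with median changes of -0.53 as deposited and -0.000955 after scaling. Chalcone synthase (CHS) makes the first flavonoid skeleton, and flavanone 3-hydroxylase (F3H) works downstream of it. CHS3 (VIT_05s0136g00260) stood at 113 FPKM in Garganega, 21.3 in Glera, 12.9 in Moscato bianco, 33.1 in Passerina and 5.25 in Vermentino at Soft, against 151, 111, 29.5, 97.8 and 44.3 FPKM in the same cultivars at Touch. As deposited it was lower at Soft in every cultivar, least in Garganega and most in Vermentino (log2 change -1.65, SE 0.36, adjusted p = 0.00996). After scaling its mean change was -1.14 (adjusted p = 0.0401), near the 2-fold limit. On that scale its change in Garganega was 0.086, and it was lower in the other 4 cultivars. F3H1 (VIT_04s0023g03370) fell by 1.60 (SE 0.32, adjusted p = 0.00778), with values from 4.11 to 12.4 FPKM at Soft and from 8.68 to 31.8 FPKM at Touch. Its change after scaling was -1.11 (adjusted p = 0.0287), also near the limit, and it was lower in 4 of 5 cultivars. F3H2 (VIT_18s0001g14310) was higher at Soft in 4 of 5 cultivars as deposited and in all 5 after scaling, where it was called (change 1.35, adjusted p = 0.00723). As deposited its change was 0.81 with Vermentino and 1.08, called, without it.

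CHS2 (VIT_14s0068g00920) stood at 52.4 FPKM in Garganega, 17.02 in Glera, 11.9 in Moscato bianco, 40.6 in Passerina and 4.41 in Vermentino at Soft, against 31.7, 29.6, 8.21, 30.7 and 31.2 FPKM in the same cultivars at Touch. The cultivars had similar Touch values except for Moscato bianco, and at Soft Garganega was highest and Vermentino lowest. Its change of -0.35 was not called (SE 0.50, adjusted p = 0.573) and turned to 0.16 after scaling and 0.20 without Vermentino. The near-identical CHS1 (VIT_14s0068g00930) had a change of -0.88 (adjusted p = 0.196), and the files do not show how fragments were split between both copies. LDOX (VIT_02s0025g04720) was called after scaling only, with 1.04 (adjusted p = 0.0351). CHI1 (VIT_13s0067g03820), F3'H (VIT_17s0000g07200) and DFR (VIT_18s0001g12800) were not called on either scale. Their deposited changes were -0.34, -0.80 and -0.53, and that of CHI1 turned to 0.18 after scaling. F3'H was lower at Soft in all 5 cultivars as deposited (adjusted p = 0.0106), under the 2-fold limit, and was at -0.27 after scaling.

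Garganega and Vermentino often stood at the ends of these changes. Garganega had the highest change in 7 of the 9 core flavonoid genes, against 30.2% of all tested rows. Vermentino had the lowest in 6 of the 9, against 20.9% of all rows. Both counts were the same on the scaled values. These genes act in 1 pathway and are not independent, and with 1 value for each cultivar and stage the difference between cultivars could not be tested.

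In the flavonol list Vermentino had the lowest change in all 6 tested genes. As deposited 0 rose and 2 fell, and after scaling 1 rose and 0 fell. MYBF1 (VIT_07s0005g01210), the activator of flavonol synthesis, stood at 6.61 FPKM in Garganega, 7.76 in Glera, 4.60 in Moscato bianco, 3.34 in Passerina and 1.61 in Vermentino at Soft, against 19.8, 11.5, 10.7, 10.9 and 12.6 FPKM in the same cultivars at Touch. It fell in every cultivar and the groups stood apart (log2 change -1.37, SE 0.26, adjusted p = 0.00625), with -0.91 after scaling, under the limit. HY5 (VIT_04s0008g05210), a light-signalling factor, stood at 44.8 FPKM in Garganega, 41.4 in Glera, 11.5 in Moscato bianco, 37.8 in Passerina and 13.00 in Vermentino at Soft, against 41.7, 119, 33.6, 75.3 and 128 FPKM in the same cultivars at Touch. The difference was 0.10 in Garganega on the log2 scale and below 0 in the other 4 cultivars, and the gene fell by 1.41 (SE 0.44, adjusted p = 0.0357). The HY5 call was lost after scaling (adjusted p = 0.139). It was also lost without Vermentino (change -0.96), Glera (adjusted p = 0.0931), Moscato bianco (0.0885) or Passerina (0.0709), against 0.00827 to 1 over its alternatives.

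Of the flavonol enzymes none was called as deposited. FLS (VIT_18s0001g03470), a flavonol synthase, stood at 7.60 FPKM in Garganega, 3.16 in Glera, 4.26 in Moscato bianco, 3.89 in Passerina and 1.83 in Vermentino at Soft, against 0.355, 1.53, 1.98, 0.551 and 6.27 FPKM in the same cultivars at Touch. It was higher at Soft in all cultivars but Vermentino (log2 change 0.90, SE 0.55, adjusted p = 0.205), and without Vermentino it was called with 1.46 (adjusted p = 0.0271; 0.0271 to 1 over its alternatives). The glycosyltransferase GT6 (VIT_11s0052g01630) was higher at Soft in all 5 cultivars, with a change of 0.85 as deposited, 1.15 after scaling, called (adjusted p = 0.0143), and 1.02, called, without Vermentino. GT5 (VIT_11s0052g01600) and HYH (VIT_05s0020g01090), a relative of HY5, were not called on either scale, and the change of HYH was -0.15 as deposited and 0.36 after scaling.

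In these white berries the anthocyanin regulators rose while UFGT stayed near 0. UFGT (VIT_16s0039g02230) attaches the glucose that makes an anthocyanin stable, and GST4 (VIT_04s0079g00690) takes part in its transport to the vacuole. UFGT reached at most 0.0798 FPKM at Soft and 0.0263 FPKM at Touch, and GST4 at most 0.488 FPKM at Soft and 0.482 FPKM at Touch. Neither reached 1 FPKM in any of the 20 columns, so both were left out of the test. MYBA1 and MYBA2 are known as activators of UFGT. MYBA2 (VIT_02s0033g00390) stood at 53.6 FPKM in Garganega, 53.3 in Glera, 71.3 in Moscato bianco, 99.9 in Passerina and 11.1 in Vermentino at Soft, against 0.00174, 0.0647, 0.186, 0.0874 and 0.00196 FPKM in the same cultivars at Touch. All Touch values were near 0 and all Soft values at least 11.1 FPKM, lowest in Vermentino (log2 change 5.50, SE 0.42, adjusted p = 0.000352). MYBA1 (VIT_02s0033g00410) stood at 8.80 FPKM in Garganega, 7.59 in Glera, 13.99 in Moscato bianco, 16.8 in Passerina and 2.09 in Vermentino at Soft, against 0.00476, 0.0692, 0.0257, 0.0291 and 0.00188 FPKM in the same cultivars at Touch. It rose by 3.18 (SE 0.36, adjusted p = 0.00112), again least in Vermentino. The MYBA genes are close copies, and fragments may have been shared among them. White cultivars are known to carry defective forms of both genes, which FPKM do not show.

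The O-methyltransferase FAOMT (VIT_01s0010g03510) ranged from 0 to 0.185 FPKM at Soft and from 0.413 to 3.89 FPKM at Touch. It fell by 1.09 as deposited (SE 0.23, adjusted p = 0.00922), was at -0.93 after scaling, and at -0.85 without Passerina, both under the limit. The acyltransferase 3AT (VIT_03s0017g00870) was not called and reached at most 0.0504 FPKM at Soft and 1.47 FPKM at Touch. Of 4 tested genes of this list 2 rose and 1 fell as deposited, and 2 rose and 0 fell after scaling.

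Among genes of defence, CHI4 and PR1 rose and MYB14 fell as deposited. Of 5 tested genes 2 rose and 1 fell as deposited, and 3 rose and 0 fell after scaling. The class IV chitinase CHI4, an enzyme against fungal walls, was measured in a row that joins VIT_05s0094g00330 with VIT_05s0094g00340. It stood at 8395 FPKM in Garganega, 9623 in Glera, 9721 in Moscato bianco, 9629 in Passerina and 2752 in Vermentino at Soft, against 13.5, 25.2, 26.5, 22.01 and 0.193 FPKM in the same cultivars at Touch. The groups were far apart (log2 change 9.21, SE 0.42, adjusted p = 0.00012), with Vermentino lowest at both stages. GRIP22 (VIT_06s0004g02560), a ripening-induced protein, stood at 6298 FPKM in Garganega, 8268 in Glera, 0 in Moscato bianco, 3503 in Passerina and 4536 in Vermentino at Soft, against 3.31, 8.75, 235, 3.85 and 0.0403 FPKM in the same cultivars at Touch. It was higher at Soft in 4 cultivars, and in Moscato bianco it was listed at 0 at Soft but stood at 12856 FPKM at Harv. With the value at 0 it was not called (log2 change 6.79, SE 3.02, adjusted p = 0.101). Without Moscato bianco the change was 10.46 and it was called (adjusted p = 0.00081; 0.00081 to 0.603 over its alternatives).

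PR1 (VIT_03s0088g00710), a marker of defence responses, rose by 1.42 (SE 0.28, adjusted p = 0.00709), with values from 1.02 to 9.36 FPKM at Soft and from 0.161 to 5.42 FPKM at Touch. MYB14 (VIT_07s0005g03340) and MYB15 (VIT_05s0049g01020) are known as activators of stilbene synthases. MYB14 ranged from 0.0654 to 1.06 FPKM at Soft and from 0.796 to 3.10 FPKM at Touch and fell by 1.04 as deposited (SE 0.15, adjusted p = 0.00268), with -0.79 after scaling, -0.93 without Moscato bianco and -0.95 without Passerina, all under the limit. MYB15 ranged from 8.01 to 32.3 FPKM at Soft and from 6.72 to 20.6 FPKM at Touch and was higher in all 5 cultivars, with a change of 0.92 as deposited, not called, and 1.42 after scaling, called (adjusted p = 0.00704). As deposited it was also called without Passerina (1.11) and without Vermentino (1.03).

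AGL11 (VIT_18s0041g01880), a MADS-box factor of ovule and seed coat identity, was used to check for seed tissue. It stood at 2.74 FPKM in Garganega, 11.5 in Glera, 7.54 in Moscato bianco, 4.98 in Passerina and 7.25 in Vermentino at Soft, against 7.19, 5.90, 9.65, 23.6 and 12.6 FPKM in the same cultivars at Touch. It was present at both stages, so the label of pericarp without seeds could not be checked by its absence. Its change was not called (log2 change -0.67, SE 0.40, adjusted p = 0.191), and without Glera it was called with -1.05 (adjusted p = 0.0429; 0.0429 to 1 over its alternatives). At Pea AGL11 stood at 9.59 to 117 FPKM, and ANR, which is also known from seeds, at 123 to 197 FPKM. The part of seed tissue in the falls of the tannin genes was not tested.

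Of the 20833 tested rows, 415 rising and 749 falling were called on both scales with at least 10 FPKM in every cultivar at the higher stage. These rows had the same direction in all cultivars and values above 0 in all 10 columns, and they include listed genes. Among those without a name here, the rows with the greatest smallest change over cultivars are given. VIT_05s0049g00770 stood at 2369 FPKM in Garganega, 2685 in Glera, 3348 in Moscato bianco, 3381 in Passerina and 397 in Vermentino at Soft, against 4.75, 3.16, 3.84, 0.851 and 0.197 FPKM in the same cultivars at Touch. VIT_11s0016g04920 stood at 4116 FPKM in Garganega, 1858 in Glera, 4457 in Moscato bianco, 5134 in Passerina and 1619.6 in Vermentino at Soft, against 1.60, 7.03, 22.2, 16.9 and 0.821 FPKM in the same cultivars at Touch. Both rose, in each cultivar by at least 7.59 on the log2 scale. VIT_16s0022g02200 stood at 1.75 FPKM in Garganega, 1.47 in Glera, 1.34 in Moscato bianco, 0.876 in Passerina and 1.22 in Vermentino at Soft, against 143, 193, 98.7, 121 and 102 FPKM in the same cultivars at Touch. VIT_02s0154g00320 stood at 4.45 FPKM in Garganega, 3.07 in Glera, 4.82 in Moscato bianco, 0.845 in Passerina and 6.42 in Vermentino at Soft, against 492, 175, 268, 554 and 482 FPKM in the same cultivars at Touch, and at Pea at 1611 to 4319 FPKM. The first of this pair fell by 5.79 (SE 0.14, adjusted p = 7.7e-05), and the other fell by 6.34 (SE 0.42, adjusted p = 0.000262).

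Full switches in all cultivars were rare. Only 7 rows stood under 1 FPKM in all 5 Touch columns and at 10 FPKM or more in all 5 Soft columns, and MYBA2 was the listed gene among them. All 7 were under 1 FPKM at Pea as well, and 6 stood at 10 FPKM or more in every cultivar at Harv. In the other direction 6 rows stood under 1 FPKM at all Soft columns and at 10 FPKM or more at all Touch columns, and all 6 stayed under 1 FPKM at Harv.

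Single cultivars differed in how many rows moved. In Passerina 1061 rows were at least 2-fold higher and 4436 at least 2-fold lower at Soft, and in Garganega 1022 were higher and 3772 lower. Vermentino had 856 higher and 3426 lower, Moscato bianco 929 and 3031, and Glera 814 and 3069. After scaling Passerina still had the most, 2101 higher and 2668 lower, and Glera the fewest in total, 1440 higher and 1767 lower. Of the 3125 falling rows the lowest change as deposited was that of Passerina in 40.0%, against 26.0% of all tested rows. After scaling its share of all tested rows was 22.6%, below the 26.2% of Garganega. The share among falling rows was not counted on that scale. In 246 rows as deposited, and in 278 after scaling, at least 1 cultivar was 2-fold higher and another 2-fold lower at Soft. No test was made of these counts, because a cultivar has 1 value per stage.

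**Figure D4:**
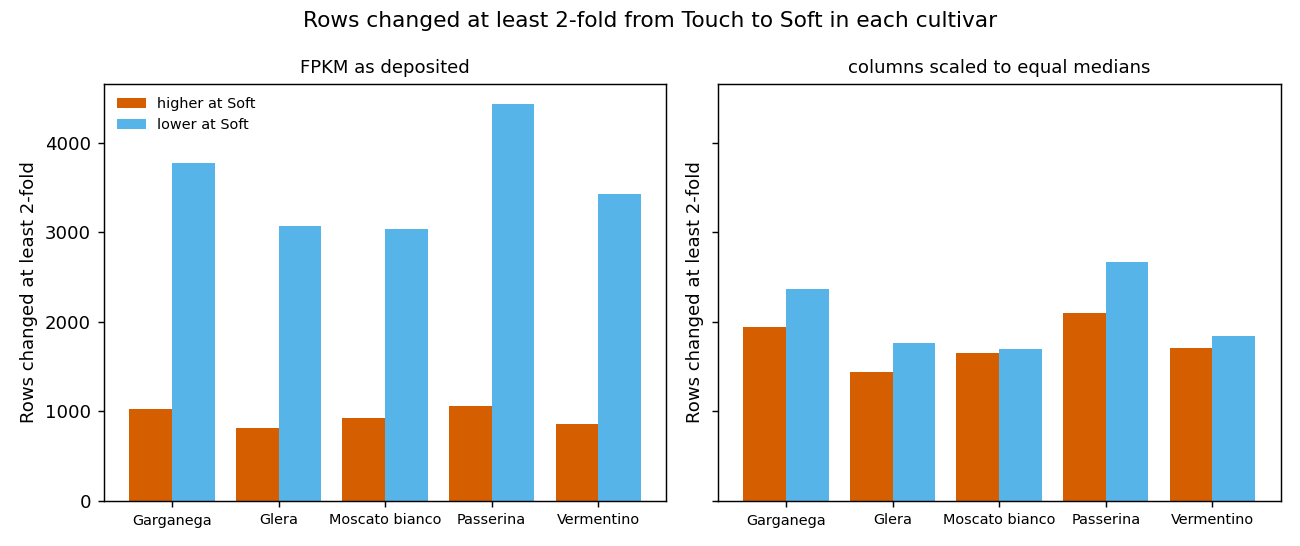
Bars give the number of rows at least 2-fold higher (orange) or lower (blue) at Soft than at Touch in each of the 5 cultivars, as deposited on the left and with equal medians on the right. Passerina has the tallest bars in both directions on both scales, with 4436 rows lower as deposited and 2668 lower after scaling.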

How the data were processed

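RNA of berry pericarp was sequenced from non-directional TruSeq libraries, per the labels' protocols. The authors deposited FPKM as 1 table, whose header names a cultivar and a stage for each of 20 columns. The submitters' processing notes name TopHat2 2.0.6 and Cufflinks 2.0.2. A genome build or annotation is not given in the sources used here. Each of the 20 columns matched a group by name. Sequencing depth is unknown, so no counting interval is given, and a value listed at 0 may be a failed estimate. Strand is not marked, and near-identical copies can share fragments.

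Of 29287 rows, 608 of which join identifiers, 20833 reached 1 FPKM in at least 1 column. Values were taken as log2(FPKM + 1). The 10 Soft and Touch columns were fitted in limma 3.58.1 (trend, R 4.3.3) on stage plus cultivar, leaving 4 residual degrees of freedom. Row variances were then moderated by empirical Bayes, so that SE and p-values also draw on other rows. P-values were adjusted by Benjamini-Hochberg over all 20833 rows. They set the mean change against its unevenness over cultivars, not against the spread between libraries. The scaled fit first set the 10 columns to the mean of their medians. Alternatives changed the pseudocount, the filter, the scale, the columns, the cultivar term, the threshold, rows with values at 0 and the cultivars. On simulated data with 20833 rows for this comparison, 35% of 100 rows changed 2-fold, which lie at the limit itself, and 96% of 100 rows changed 4-fold were called. Of 20633 unchanged rows 2 were called. The changed rows were drawn only from rows averaging at least 10 FPKM on the log scale. Noise was drawn independently, with no shift shared by all rows. The shares of changed rows called therefore do not cover rows of lower FPKM.

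Every listed gene is accounted for. Without a name, the 2 rising and 2 falling rows were taken that were called on both scales, reached 10 FPKM in all columns of the higher stage, were above 0 in all 10 columns and had the largest smallest change over cultivars. Members and lists were chosen with earlier results of these data known. No sequences are shown, since no file given here ties one to these identifiers.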

Additional observations from a re-analysis of the deposited data

Results flagged for a closer look

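Of 79 sets of 5 cultivars searched for a value far from the other 4, 3 had one, and chance flags about 1 set in 20. This number of flags is no more than chance alone would give, so the values below are descriptions. GIN1 changed by -5.47 in Passerina, against -3.95 to -3.36 in the other cultivars. GRIP22 changed by -7.89 in Moscato bianco, where it is listed at 0 at Soft, against 9.50 to 12.09 in the others. CHI4 changed by 11.17 in Vermentino, where it stood at 0.193 FPKM at Touch, against 8.47 to 9.17 in the others.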

How the results depend on the processing

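Counts of calls moved by over 1.5 times with the scale, the pseudocount and the threshold. Rising rows numbered 723 as deposited, 1370 with equal medians, 1163 after quantile normalization and 249 in a test against a 2-fold change. Falling rows numbered 3125 as deposited, 1738 with equal medians, 1773 after quantile normalization, 1592 with a pseudocount of 5 and 1003 in the test against a 2-fold change. Falls made up 81.2% of calls as deposited, 55.9% with equal medians, 60.4% after quantile normalization and 73.7% with equal sums over all rows but the 100 most abundant. With 1 cultivar left out, rising rows ranged from 666 to 713 and falling rows from 2827 to 3149, and with equal medians from 1263 to 1360 and from 1510 to 1746. Under 0.5 FPKM and at least 5 FPKM, 15 rows were switched off in place of 6. Rows changed at least 1.5-fold and at least 4-fold numbered 8430 and 1547 in Garganega, 7676 and 1111 in Glera, 7875 and 1074 in Moscato bianco, 9530 and 1845 in Passerina, and 8137 and 1242 in Vermentino.

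Of 44 called genes and rows named in the text, 26 kept the call in all 16 alternatives, 36 kept it in every fit without 1 cultivar, and 0 reversed. CHS3, PR1 and NCED3 lost the call without the cultivar term, while HT1, GRIP22 and MYBPA1 gained it with all 20 columns in the fit. HT1 was called in 5 of the 16 alternatives. Of genes not called, 7 changed sign. With equal medians the changes were 0.18 for CHI1, 0.16 for CHS2, 0.045 for GH3-1, 0.36 for HYH and 0.036 for LAR1. After quantile normalization they were 0.14 for CCD4a, 0.023 for CHS2, 0.29 for HYH, 0.18 for LAR1 and 0.010 for MYBPA2. HYH was at 0.036 with equal sums. With 1 cultivar left out, CHS2 ranged from -0.62 without Garganega to 0.20 without Vermentino. The cause of these differences was not tested. Stages were paired by cultivar in each fit but the one without the cultivar term. By replicate number, no paired analysis was possible because the columns are means that carry no such number. Sequencing depth is unknown, so precision at low FPKM cannot be given.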
